A study of Mus musculus with 10 samples.

Results

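In all, 10 genes of the Hippo pathway were examined in the embryonic mouse heart: the coactivators *Yap1* and *Wwtr1* (which encodes TAZ), the transcription factors *Tead1*, *Tead2*, *Tead3* and *Tead4*, the kinases *Lats1* and *Lats2*, and the target genes *Ctgf* and *Cyr61*. They were chosen by name, and all 10 were found among the 23195 genes of the deposited table. The libraries were polyA RNA-seq libraries of whole hearts taken from male embryos at embryonic day 13.5 (E13.5) on the C57BL6/J strain, 5 of them wild type and 5 homozygous for a *Nos1ap* constitutive null allele (*Nos1ap* tm1d/tm1d). This allele lacks exon 4 in every cell of the embryo, so that the comparison is of whole animals without *Nos1ap* and not of a loss limited to the heart, and was made by Cre and Flpe recombination of a knockout-first allele from targeted C57BL/6N embryonic stem cells. NOS1AP is an adaptor protein of neuronal nitric oxide synthase, and it also binds the polarity protein Scribble. The question of the comparison was which transcripts of the E13.5 heart differ when *Nos1ap* is lost.

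In the Hippo pathway, the MST kinases activate LATS1 and LATS2, and these phosphorylate YAP and TAZ and keep them out of the nucleus. When the kinases are inactive, YAP and TAZ enter the nucleus, bind the TEAD factors and switch on growth genes, of which *Ctgf* and *Cyr61* are the most used readouts. In the fetal heart the pathway is known for holding back the division of cardiomyocytes. YAP and TAZ are controlled mostly by phosphorylation, which RNA-seq does not measure, so transcript levels of the kinases and coactivators do not show their activity.

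TEAD factors bind DNA motifs with the core GGAATG, read as CATTCC on the other strand. To show where these letters stand, the 250 bases upstream of the start sites were read from RefSeq (GRCm38.p6), where 7 of the 10 genes had an entry (*Yap1*, *Wwtr1*, *Tead2*, *Tead3*, *Lats1*, *Lats2* and *Cyr61*). At least 1 match on either strand was found for 4 of the 7 genes, *Yap1*, *Wwtr1*, *Tead3* and *Cyr61*, and for 14.4% of 27025 genes. Counted by start site, 6 of the 11 of these 7 genes held a match, beside 12.6% of 32851 start sites. The same *Wwtr1* match was counted from each of its start sites. A gene with more start sites has more windows in which to match, and whether the shares differ was not tested. The upstream sequence of *Cyr61*, the target gene with values in single libraries, is shown whole (chr3:145649986-145650235, minus strand), and its capitals mark the match from 103 to 98 bases before the start site.
Cyr61: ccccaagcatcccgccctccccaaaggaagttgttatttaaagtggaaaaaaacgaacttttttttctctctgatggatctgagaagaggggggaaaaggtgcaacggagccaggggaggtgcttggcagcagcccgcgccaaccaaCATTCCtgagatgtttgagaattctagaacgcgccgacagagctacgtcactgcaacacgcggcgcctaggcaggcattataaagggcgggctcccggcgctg
Windows of 60 bases are shown for the 2 coactivators and for the TEAD gene with a match, each with its matches in capitals. The *Yap1* window is at chr9:8004705-8004764, that of *Wwtr1* at chr3:57576014-57576073 and that of *Tead3* at chr17:28350691-28350750, all on the minus strand.
Yap1: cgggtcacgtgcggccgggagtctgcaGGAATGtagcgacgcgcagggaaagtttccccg
Wwtr1: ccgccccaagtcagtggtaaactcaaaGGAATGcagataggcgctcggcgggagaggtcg
Tead3: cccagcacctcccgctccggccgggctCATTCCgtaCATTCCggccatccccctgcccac
The *Tead3* window belongs to 1 of its 3 start sites and holds 2 matches. These matches are letters in a window and were not measured as binding sites.

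The deposited values were mean normalized counts of each genotype, that is, read counts divided by the size factor (relative depth) of the library and averaged over 5 libraries. The counts of single libraries were recovered from the digits of these means for 5 of the 10 genes, *Tead3*, *Tead4*, *Lats1*, *Lats2* and *Cyr61*. *Yap1*, *Wwtr1*, *Tead1*, *Tead2* and *Ctgf* were too abundant for this step, and their values are the authors' means, with no spread and no test. Depth differed little among libraries, with an estimated 11328000 to 14023000 read pairs on genes, and libraries are numbered 1 to 5 within a genotype by falling depth, since the recovered values do not carry the replicate number of the labels. *Nos1ap* itself was lower in every null library than in any wild-type one, with 126 to 161 normalized counts in wild type and 31.1 to 44.4 in the null (log2 fold change -1.83, SE 0.12, adjusted p = 7.63e-09, limma with Benjamini-Hochberg adjustment). All 8 cardiomyocyte markers were abundant, with a summed mean of 320441 normalized counts in wild type and 326244 in the null. Of the lung epithelium markers, *Nkx2-1* and *Sftpc* were not listed and the other 4 had means under 10. Wild-type library 3 stood apart in neuronal markers, with a sum of 1037 normalized counts over 5 markers against 53.1 to 74.5 in the other 9 libraries.

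Levels of the 10 genes in wild type were compared per kilobase of merged exons (GENCODE release M21 on GRCm38). *Ctgf*, whose product is a secreted matrix-associated protein, was highest with 548 normalized counts per kilobase, followed by *Tead2* with 518 and *Cyr61*, of the same protein family, with 291. The coactivators *Yap1* and *Wwtr1* stood close together at 250 and 241, with *Tead1* at 233. *Lats2* (139) and *Tead3* (134) came next, before *Lats1* (56.0) and *Tead4* (28.7). Over the 5 wild-type libraries, *Lats2* ranged from 132 to 144 and *Tead3* from 129 to 140 normalized counts per kilobase, so that this pair overlapped and did not differ beyond its spread. *Tead3* lay above *Lats1* (49.1 to 59.6) in every wild-type library, and *Lats1* above *Tead4* (27.5 to 29.9). With *Cyr61* at 244 to 344 per kilobase, the mean of *Yap1* lay within its range, and those of *Wwtr1* and *Tead1* lay just below it. The order among the genes with authors' means alone could not be set against a spread. The order depends on the length used: per kilobase of the longest transcript, *Tead2* came first with 731 and *Ctgf* second with 630, and 2 of the 10 genes (*Lats1* and *Tead4*) kept their rank.

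**Figure D1:**
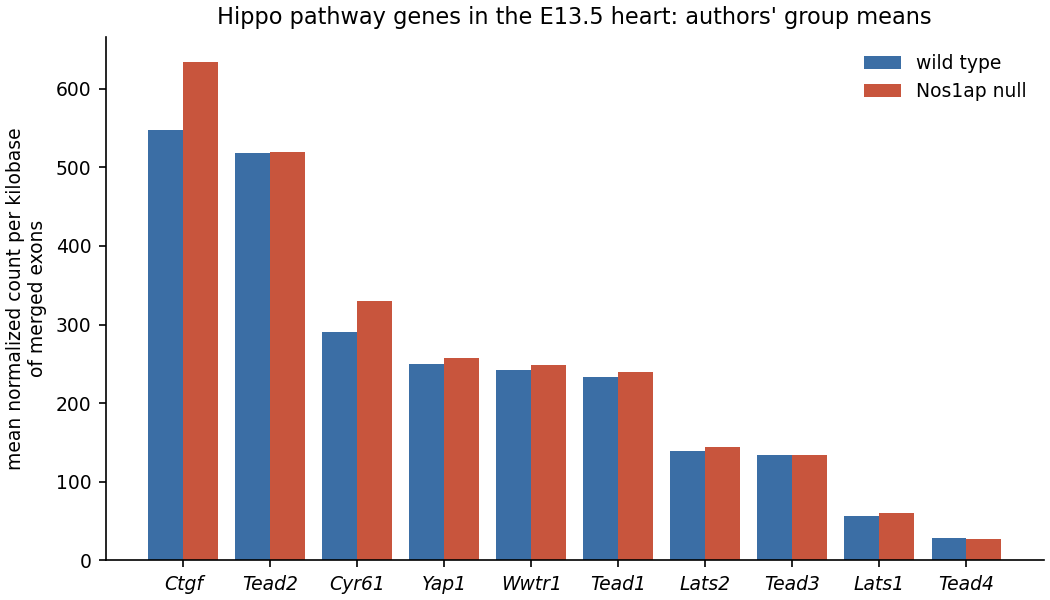
Bars give the authors' mean normalized count per kilobase of merged exons (vertical axis) of the 10 genes, in wild type (blue) and Nos1ap null (red), without error bars since the means carry none. The order runs from Ctgf at 548 in wild type to Tead4 at 28.7, and the largest gap between the genotypes is at Ctgf (548 against 635).

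Within gene families, the shares of each paralogue were nearly equal in both genotypes. *Tead2* made up 56.6% of the TEAD transcripts per kilobase in wild type and 56.5% in the null. *Tead1* gave 25.5% and 26.0%, *Tead3* gave 14.7% and 14.5%, and *Tead4* gave 3.14% and 2.95%. *Tead4* was therefore 18.0-fold below *Tead2* in wild type, per kilobase of merged exons. *Yap1* held 50.9% of the sum of *Yap1* and *Wwtr1* in wild type and 50.8% in the null, but 64.1% in wild type when lengths were taken from the longest transcript. *Lats2* held 71.2% of the LATS transcripts in wild type and 70.7% in the null. These shares also depend on the length used. Per kilobase of the longest transcript, the wild-type shares were 54.3% for *Tead2*, 23.7% for *Tead1*, 19.5% for *Tead3* and 2.50% for *Tead4*. That of *Lats2* was 76.6%.

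None of the 5 genes with values in single libraries was called different between genotypes, at an FDR of 1% with an absolute log2 fold change over 1 or at an FDR of 5% with no limit on the fold change (limma with Benjamini-Hochberg adjustment over all genes tested). Either threshold called 3 of the 10354 protein-coding genes tested (0.0290%), *Nos1ap*, *Mt2* and *Gm7694*. The genotypes overlapped in all 5 genes, as they did in all but 0.782% of the genes tested. The 95% intervals of the 5 log2 fold changes together spanned -0.28 to 0.36, so that a doubling or halving lay outside each of them. By the authors' means, 8 of the 10 genes were higher in the null and 2 lower, with a median log2 ratio of 0.04, where 49.5% of 13299 protein-coding genes with a mean of at least 10 were higher and the median was 0.00.

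The coactivators are the proteins on which the kinase cascade acts. *Yap1* (chr9:7931999-8004596, minus strand) had a mean of 2316 normalized counts in wild type and 2378 in the null, a log2 ratio of 0.04. *Wwtr1* (chr3:57455649-57575910, minus strand) had means of 1154 and 1189, also a log2 ratio of 0.04. Both ratios were close to the median absolute log2 ratio of 0.03 among 4860 protein-coding genes with means from 500 to 5000. With group means only, no error can be put on these ratios.

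The TEAD factors carry YAP and TAZ to DNA, since the coactivators do not bind DNA on their own. *Tead1* (chr7:112679318-112906807, plus strand) had means of 3168 in wild type and 3244 normalized counts in the null, a log2 ratio of 0.03. *Tead2* (chr7:45215753-45233644, plus strand), the TEAD gene with the highest level per kilobase, had means of 2481 and 2488, a log2 ratio of 0.00. The 3′ end of *Tead2* overlaps the opposite-strand gene *Cd37*. *Tead3* (chr17:28331671-28350817, minus strand) had 934, 942, 895, 874 and 868 normalized counts in the wild-type libraries 1 to 5, and 940, 837, 889, 906 and 904 in the null libraries. The values of the genotypes covered nearly the same range, and only null library 2 fell below every wild-type library. Means were 903 ± 34.0 in wild type and 895 ± 37.6 in the null (SD, n = 5), with a log2 fold change of -0.01 (SE 0.04, 95% interval -0.10 to 0.07). The adjusted p was 0.998 by limma, and the two-sided exact permutation test gave p = 0.738.

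*Tead4* (chr6:128224288-128300823, minus strand), the least abundant of the 10 genes, had 101, 107, 103, 99.1 and 107 normalized counts in the wild-type libraries and 105, 89.5, 104, 95.6 and 93.7 in the null libraries. Null libraries 2, 4 and 5 lay below every wild-type library, and null libraries 1 and 3 lay within the wild-type range. The spread of *Tead4* was unusually narrow for its level. Its coefficient of variation within genotypes, 5.40%, exceeded that of only 1.35% of 1629 tested genes with a mean within 1.5-fold of its own. Means were 103 ± 3.59 and 97.6 ± 6.78 normalized counts (SD, n = 5), and the log2 fold change was -0.08 (SE 0.09, 95% interval -0.28 to 0.11). This difference did not pass the test (adjusted p = 0.998 by limma, exact permutation p = 0.135).

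*Lats1* and *Lats2* encode the kinases that phosphorylate YAP and TAZ, and *Lats2* is itself known as a gene that YAP switches on. *Lats1* (chr10:7681214-7716460, plus strand) had 358, 435, 412, 414 and 425 normalized counts in the wild-type libraries and 447, 385, 459, 469 and 408 in the null libraries. Null libraries 1, 3 and 4 were above every wild-type library, and null libraries 2 and 5 were within the wild-type range. The means were 409 ± 29.6 and 434 ± 35.6 normalized counts (SD, n = 5), with a log2 fold change of 0.08 (SE 0.06, 95% interval -0.05 to 0.22). The adjusted p was 0.998 by limma and the exact permutation p was 0.270.

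*Lats2* (chr14:57689662-57758388, minus strand) had 937, 1001, 965, 924 and 1002 normalized counts in the wild-type libraries and 1004, 917, 1037, 1055 and 992 in the null libraries. Null libraries 1, 3 and 4 were again the highest of all, library 1 by a narrow margin, and null library 2 was the lowest. The means were 966 ± 36.0 and 1001 ± 53.2 normalized counts (SD, n = 5), and the log2 fold change was 0.05 (SE 0.04, 95% interval -0.04 to 0.14, adjusted p = 0.998 by limma, exact permutation p = 0.262). In the M21 annotation the span of *Lats2* overlaps that of a protein-coding gene model on the same strand, *Gm49361*, which is not analysed here. Whether they share exons was not examined. The authors counted on GENCODE M10, so any effect on the counts of *Lats2* is not known.

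Null library 2 was the lowest null library in 4 of the 5 genes, *Tead3*, *Tead4*, *Lats1* and *Lats2*. The same library had the highest sum of 2 erythroid markers (*Rhag* and *Klf1*), 294 normalized counts against 19.2 to 65.3 in the other null libraries and 22.8 to 68.1 in wild type. All 5 erythroid markers examined had a higher mean in the null, and their part in the values of these 4 genes was not tested. Without null library 2, the log2 fold change became 0.01 for *Tead3*, -0.05 for *Tead4*, 0.13 for *Lats1* and 0.08 for *Lats2*, and none was called. In whole hearts, fewer cells of a type and less RNA per cell cannot be told apart.

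**Figure D2:**
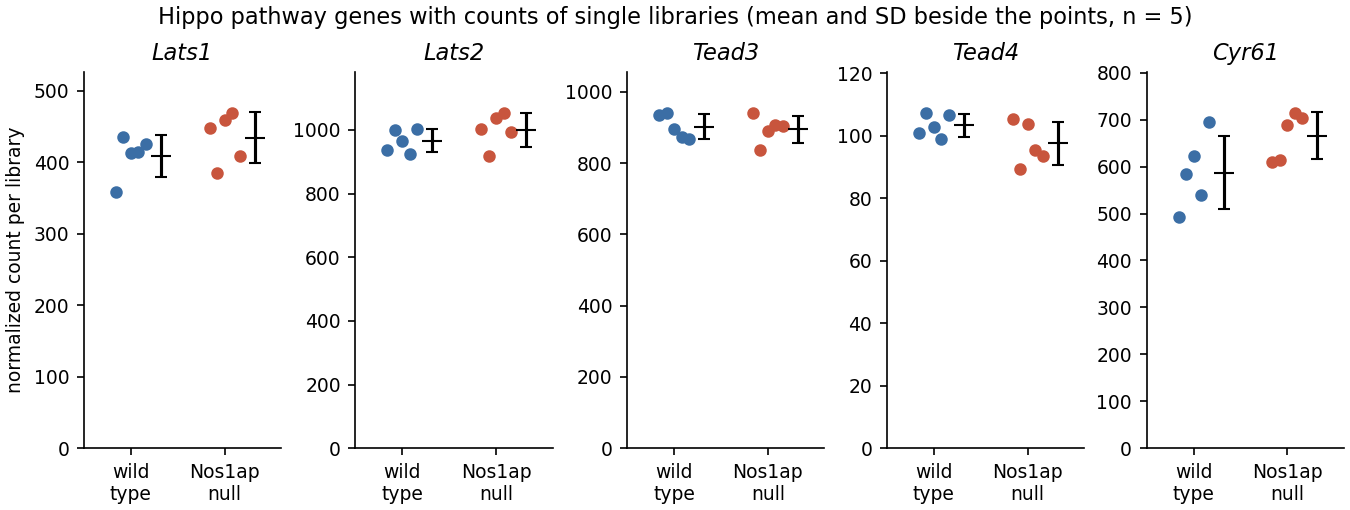
Each point is the normalized count of 1 library (vertical axes, from 0) for the 5 genes with recovered counts, in wild type (blue) and Nos1ap null (red), with the mean and SD of 5 libraries beside the points. The genotypes overlap in every panel, and Cyr61 shows the widest spread, from 493 to 695 in wild type.

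The target genes *Ctgf* and *Cyr61* encode secreted proteins of the CCN family that bind integrins and matrix, and they had the highest ratios of the 10 genes. *Ctgf* (named Ccn2 in release M21, chr10:24595442-24598683, plus strand) had a mean of 1568 normalized counts in wild type and 1816 in the null, 15.8% higher, or a log2 ratio of 0.21. Among the 4860 protein-coding genes with means from 500 to 5000, the median absolute log2 ratio was 0.03. *Ctgf*, at 0.21, and *Cyr61*, with a log2 ratio of means of 0.18, were both above this median. A ratio of means takes no account of the spread between libraries. Within genotypes, *Cyr61* varied more than 97.9% of 2801 tested genes with a mean within 1.5-fold of its own. The *Ctgf* difference is between authors' means, for which no spread over libraries is known. *Ctgf* overlaps the opposite-strand transcript *Gm15270*, and reads were counted by strand.

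*Cyr61* (named Ccn1 in release M21, chr3:145646976-145649981, minus strand) had 493, 585, 622, 540 and 695 normalized counts in the wild-type libraries and 609, 613, 689, 715 and 704 in the null libraries. All 5 null libraries were above the wild-type mean and 2 of them were above every wild-type library, but wild-type library 5 exceeded 3 null libraries and the genotypes overlapped. Means were 587 ± 77.4 in wild type and 666 ± 50.8 in the null (SD, n = 5). The fitted log2 fold change was 0.19 (SE 0.08, 95% interval 0.01 to 0.36), a 1.14-fold higher level in the null.

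The unadjusted p of *Cyr61* was 0.0358 and the adjusted p 0.998 (limma with Benjamini-Hochberg adjustment), and the two-sided exact permutation test over all arrangements of the 10 libraries, whose smallest possible p is 0.00794, gave p = 0.103. *Cyr61* was the only one of the 5 genes with an unadjusted p under 0.05, which 3.56% of the genes tested had, 1.72% with a higher and 1.84% with a lower level in the null. The difference therefore did not pass the correction. *Cyr61* was also the most variable of the 5: its coefficient of variation within genotypes was 10.4%, higher than that of 97.9% of 2801 tested genes with a mean within 1.5-fold of its own. Those of *Tead3*, *Lats2*, *Tead4* and *Lats1* were 3.99%, 4.62%, 5.40% and 7.78%. Leaving out single libraries moved the log2 fold change of *Cyr61* between 0.13 (without wild-type library 1) and 0.25 (without wild-type library 5), with adjusted p from 0.836 to 1.00. Its unadjusted p ranged from 0.00177 to 0.0857 in these 10 fits and was under 0.05 in 4 of them.

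Epicardial markers, of the cell layer that covers the heart, are given beside these values. Of 7 markers, 6 had a higher mean in the null and *Aldh1a2* a lower one (506 and 483), and the sum of the 4 with recovered counts ranged from 1206 to 1347 normalized counts in wild type and from 1346 to 1448 in the null. None of the 4 was called (1 of them, *Wt1*, had an unadjusted p under 0.05), and none of the 7 was at 0. Endothelial markers were likewise higher in 6 of 7 means, with *Nfatc1*, the only one with recovered counts, at 846 to 1019 in wild type and 830 to 999 in the null. Mesenchymal and smooth muscle markers were higher in 1 and lower in 6 of 7 means, and myeloid markers with a mean of at least 10 were higher in 1 and lower in 4 of 5. The part of these cell types in the values of *Cyr61* and *Ctgf* was not tested.

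The kinases and adaptors upstream of LATS were represented by 22 genes, all in the table. None of the 9 with recovered counts was called, and their median log2 fold change was 0.02 beside 0.00 over all genes tested. By the authors' means, 16 of the 22 were higher in the null and 6 lower, with log2 ratios from -0.12 to 0.10. The most abundant were *Map4k4*, a kinase that acts beside the MST kinases (means of 3079 in wild type and 3148 in the null), *Taok2*, of the TAO kinases that can activate them (1835 and 1871), and the protocadherin *Dchs1*, the ligand of FAT4 (1779 and 1856). *Map4k2*, another MAP4K kinase, had the lowest value, with a log2 fold change of -0.12 (SE 0.05, adjusted p = 0.998 by limma), and was the only gene of the 3 lists with an unadjusted p under 0.05 (0.0208, and 0.0115 to 0.0568 without single libraries). *Stk3*, which encodes the kinase MST2, had a log2 fold change of 0.09 (SE 0.05, adjusted p = 0.998). *Mob1b*, a cofactor of LATS, had the highest ratio of means at 0.10, from 1299 to 1394 normalized counts.

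Proteins that bind YAP, TAZ or TEADs were represented by 15 genes, of which 14 were listed (*Vgll1* was not) and 6 had values in single libraries. None of the 6 was called, with a median log2 fold change of -0.01. By the authors' means, 7 of 13 with a mean of at least 10 were higher in the null and 6 lower. *Tjp1*, which encodes the tight junction protein ZO-1, had means of 2068 and 2225 normalized counts, the highest ratio of this list (log2 0.11). *Amotl1*, *Amotl2* and *Amot* encode angiomotins, which hold YAP in the cytoplasm. Their log2 ratios were 0.00, 0.08 and 0.06. *Wbp2*, a YAP-binding coactivator, had means of 1530 and 1506, a log2 ratio of -0.02.

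Further target genes of YAP and TAZ were represented by 19 genes, all in the table, of which *Amotl2* and *Ptpn14* also stand among the binding proteins. Of these, 10 had recovered counts, none was called or had an unadjusted p under 0.05, and the median log2 fold change was 0.00. By the authors' means, 13 of 18 targets with a mean of at least 10 were higher in the null and 5 lower. *Ankrd1*, a sarcomere-associated target and the most abundant of these genes, had means of 9566 and 10242 normalized counts (log2 ratio 0.10). *Ccdc80* and *Arhgef17* had log2 ratios of 0.07 and 0.01. *Gadd45a*, a stress-induced growth arrest gene, had the highest ratio of means of this list (0.39), but its fitted log2 fold change was 0.29 (SE 0.28, adjusted p = 0.998 by limma). Null library 2 held 117 normalized counts of *Gadd45a*, against 37.8 to 52.3 in the other null libraries and 35.2 to 65.0 in wild type, and without it the log2 fold change was 0.01. *Fjx1*, a target that encodes a Golgi-resident and secreted protein related to Four-jointed, had the lowest value (-0.21, SE 0.12, adjusted p = 0.998), and *F3*, tissue factor, had 0.17 (SE 0.15, adjusted p = 0.998), and 0.03 without wild-type library 4, the lowest library with 40.2 normalized counts.

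**Figure D3:**
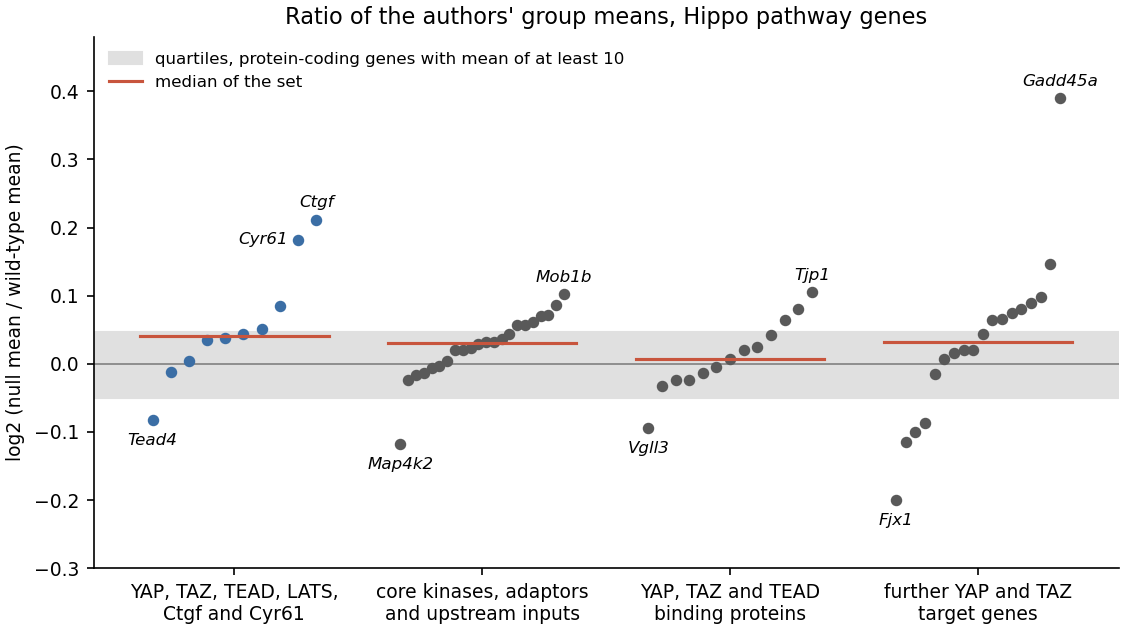
Points give the log2 ratio of the authors' means, null over wild type (vertical axis), for the 10 genes and the 3 lists of pathway genes with a mean of at least 10, sorted within each set, with the median of each set as a red line and the quartiles of 13299 protein-coding genes (-0.05 and 0.05) as a grey band. Ctgf (0.21) and Cyr61 (0.18) stand above the other 8 genes, and Gadd45a (0.39) is the highest of the target genes.

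**Figure D4:**
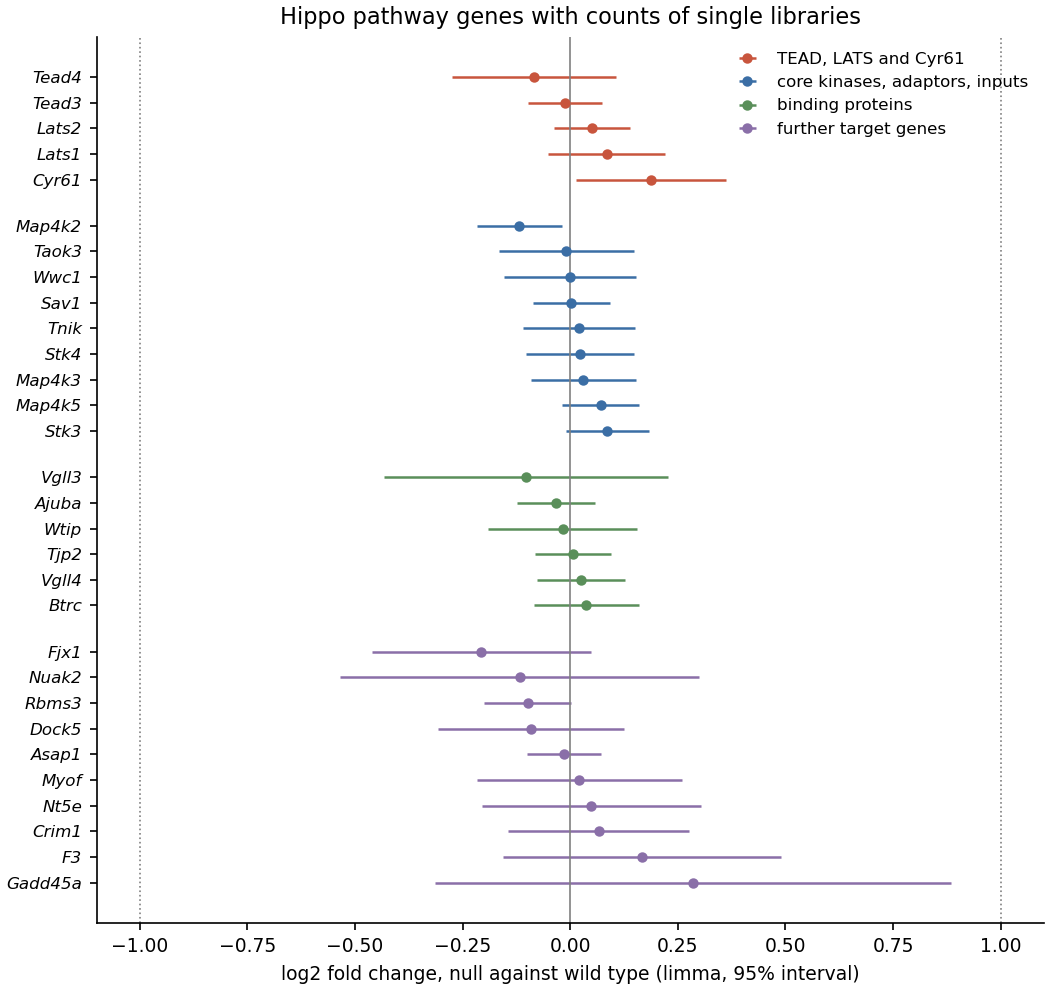
Points and bars give the limma log2 fold change and its 95% interval (horizontal axis) for the 5 genes with recovered counts (red) and for the upstream genes (blue), binding proteins (green) and further targets (purple) with recovered counts, and dotted lines mark the log2 limits of -1 and 1. Every interval lies within these limits, and those of Cyr61 (0.01 to 0.36) and Map4k2 alone leave out 0.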

How the data were processed

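PolyA RNA was sequenced from E13.5 hearts of 5 wild-type and 5 *Nos1ap* null male embryos, and genotypes were taken from the sample titles. Reads were trimmed by the authors (Trimmomatic 0.36), mapped with STAR and counted per gene and strand with RSEM 1.2.31 on GENCODE M10 transcripts (GRCm38), and the authors kept genes with a summed count over 1. The deposited signal values are means over each genotype of gene counts divided by size factors, made by the authors with DESeq 1.24.0. The fold changes, log2 fold changes and p-values of the authors' own comparison in the same table were not used.

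Counts of single libraries (rounded RSEM counts) were recovered as the whole numbers whose weighted sum gives a group mean to its last printed digit (15 digits), with weights read from the smallest steps between means, where at most 0.01 other sets were expected by chance and the mean was under 1000. Both groups were recovered for 14028 of 14351 protein-coding genes under this limit. On data simulated from the 14028 recovered genes, 99.3% of wild-type and 99.6% of null means were recovered, 0 of them wrong. These shares do not cover the genes that were not recovered. Size factors recomputed from the recovered counts differed by at most 0.83%. The recovery took the counts nearest to equal expression at the same size factors, so this is not an independent check. Genes of high mean or wide spread are left out by this step.

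The limma package (3.58.1, R 4.3.3) was fitted to the 10354 protein-coding genes whose mean was 10 or more, as log2 values after adding a pseudocount of 1 to normalized counts, with trended and robust moderation and Benjamini-Hochberg adjustment over all of them. The study's thresholds (FDR of 1% and absolute log2 fold change over 1) made a call. Tested on simulated data for this comparison over 10354 genes with 200 changed, an FDR of 5% called 25.0% of genes changed by 0.25 on the log2 scale, 65.0% of those changed by 0.5 and 94.5% of those changed by 1.5. With 200 changed genes the adjustment is less strict than in the real data, where 3 genes were called. The simulated shares are therefore too high for these data, and they are averages over genes of differing spread. An exact permutation test, two-sided, was run for each of the 5 genes with counts (scipy 1.17.1). Intervals are t intervals of the limma fit. No label says whether the libraries came from separate litters, so p-values measure the spread between these samples.

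The 10 genes and the lists were chosen with earlier results of these data known. Named were the 10 genes and, in each of 3 pathway lists, the 3 genes with the highest wild-type mean, the 3 whose ratio of means was farthest from 1 (mean of 50 or more), and any gene called. 1 marker gene is not reported here. Upstream sequences were read from RefSeq (GRCm38.p6), and exon lengths and positions from GENCODE M21. Depth was estimated from size factors.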

Additional observations from a re-analysis of the deposited data

Results flagged for a closer look

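Among 40 sets of 5 library values (members, other named genes and summed markers), 6 held a library far from the other 4. Chance gives about 1 in 20 for independent sets that were not chosen by their values. That rate does not apply as it stands here. Some genes were named for a large ratio of means or after the values were seen, and the sets share libraries. For *Gadd45a*, null library 2 stood apart with 117 normalized counts. For *Nov*, a CCN family gene like *Ctgf* and *Cyr61*, null library 2 stood apart with 31.2 normalized counts, below 81.6 to 99.0 in the other null libraries. In the summed erythroid markers *Rhag* and *Klf1*, null library 2 stood apart with 294 normalized counts. Wild-type library 3 stood apart in the summed neuronal markers (1037), the lung epithelium markers (40.7 over 4 genes, against 4.03 to 9.31 in the other libraries) and the mesenchymal and smooth muscle markers, where the sum is *Myh11* alone (206 against 28.3 to 69.1). None of the 5 Hippo pathway genes with recovered counts had such a library, though wild-type library 1 of *Lats1* (358 normalized counts) fell just short of the limit. Without that library the log2 fold change of *Lats1* was 0.04.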

How the results depend on the processing

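The count of 0 called among the 5 genes held with a pseudocount of 0.5, with no filter on the mean, with a mean of at least 50, with voom weights, at an FDR of 5%, with the median log2 fold change (-0.00439 over all genes) moved to 0 and without each library in turn (0 to 0). Apart from the FDR of 5%, these alternatives kept the limit of 1 on the absolute log2 fold change. The farthest fit from 0 was 0.25, for *Cyr61*, so the count could not have moved under that limit. Without single libraries, the lowest adjusted p of *Cyr61* by limma was 0.836. An alternative chosen after seeing the data, an unadjusted p under 0.05, gave 1 gene, *Cyr61*. The 3 pathway lists had 0 called genes in all 16 alternatives, which kept the same limit on the fold change apart from the FDR of 5%. *Tead3* changed sign without null library 2 (0.01), without wild-type library 1 (0.0005) and without wild-type library 2 (0.0034), and it was not called in any of these fits. The log2 fold change of *Tead4* ranged from -0.11 to -0.05 without single libraries, that of *Lats1* from 0.04 to 0.13 and that of *Lats2* from 0.03 to 0.08. The exact permutation test gave 0 genes with p under 0.05, and 0 to 1 without single libraries: without wild-type library 5 the exact p of *Cyr61* was 0.0476, and in the other 9 such tests it ranged from 0.0952 to 0.206. The median log2 ratio of the authors' means over the 10 genes was 0.04 with a pseudocount of 1 and with the ratios centred. With the longest transcript as length, 2 of 10 genes kept their rank per kilobase. No paired analysis was possible because no pairing of wild-type and null libraries is known. The SE of the 5 log2 fold changes ran from 0.04 to 0.09, and what depth and the spread between libraries each add to it was not tested.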

Other observations

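Genes chosen after the values of *Ctgf* and *Cyr61* were seen are described here. *Cyr61* is also an immediate-early gene, induced within minutes of serum or stress. Of 14 serum-responsive immediate-early genes, 11 had a higher mean in the null and 3 a lower one, and none of the 11 with recovered counts was called (median log2 fold change 0.04). *Zfp36*, which encodes an mRNA-destabilizing protein, had the lowest unadjusted p of these (0.0183, log2 fold change 0.22, SE 0.09, adjusted p = 0.998 by limma with Benjamini-Hochberg adjustment). Its highest value was again in null library 2 (324 normalized counts, against 224 to 285 in the other null libraries and 207 to 254 in wild type), and without that library the log2 fold change was 0.15. *Fos* had means of 63.1 normalized counts in wild type and 58.6 in the null, and *Egr1* 330 and 370.

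Of the other CCN family genes, *Wisp1* had means of 1196 and 1231 normalized counts. *Nov* had a lower mean in the null (109 and 76.3, log2 fold change -0.61, SE 0.28, adjusted p = 0.998 by limma), and the log2 fold change was -0.32 without null library 2. *Wisp2* and *Wisp3* had means under 3 normalized counts.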
